A study of Mus musculus with 12 samples.

Results

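Carbonic anhydrases are zinc enzymes that interconvert carbon dioxide and water with bicarbonate and a proton. Their isoforms work in different places: some are dissolved in the cytosol, some are anchored to the outside of the plasma membrane, and some lie in the mitochondrial matrix. In adipose tissue the cytosolic isoform CAR3 is known for its abundance in adipocytes, and bicarbonate made by carbonic anhydrases is a substrate of the carboxylases that feed lipid synthesis. The genes described here are *Car2*, *Car3* and *Car13*, which encode cytosolic isoforms, *Car4*, which encodes a membrane-anchored isoform, and *Car5b*, which encodes a mitochondrial isoform. They were chosen by symbol, and all 5 were found among the 14159 genes with deposited normalized counts.

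The RNA came from whole inguinal white adipose tissue (iWAT) of Atf4WT and Atf4AKO mice, all on a C57BL/6 background. Atf4AKO mice carry floxed *Atf4* alleles and Cre under *Adipoq*, so that recombination is driven in adipocytes and the other cells of the tissue keep their *Atf4*, whereas Atf4WT mice are littermates with the floxed alleles and no Cre. ATF4 is a transcription factor of the integrated stress response. Housing was at room temperature (RT) or, for the 24 h of cold exposure, at 5 °C, and each of the 4 groups has 3 biological replicates. The age and sex of these mice are not given in the sources used here, nor is the number of mice behind a library. A library held between 25719476 and 29105147 reads on the listed genes. *Atf4* itself, measured in whole tissue, had 4815 ± 791 normalized counts in Atf4WT and 1568 ± 87.9 in Atf4AKO iWAT at RT, and 6970 ± 1054 against 1182 ± 395 after cold exposure (mean ± SD, n = 3). *Ucp1*, the thermogenic uncoupling protein, rose with cold from 443 ± 241 to 81029 ± 11913 in Atf4WT and from 612 ± 426 to 97153 ± 20017 in Atf4AKO iWAT. All 10 adipocyte markers were listed, and *Fabp4* was the most abundant of them. Skeletal muscle markers, of which 7 of 12 were listed, stood apart in some libraries: their summed normalized counts were 122383 in Atf4WT RT replicate 2, 42680 in Atf4WT cold replicate 0 and 6284 in Atf4AKO cold replicate 1, against 1447 to 2444 in the other libraries. B cell markers, 11 of 12 listed, summed to between 4230 and 14903 in cold-exposed Atf4WT iWAT and to between 95.2 and 398 in cold-exposed Atf4AKO iWAT.

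On the mouse genome (GRCm38, mm10), *Car13*, *Car3* and *Car2* lie on the plus strand of chromosome 3 in a cluster that also holds *Car1* on the minus strand. In this order, *Car13* (NM_024495) occupies chr3:14641727-14663002, *Car1* chr3:14766216-14808368, *Car3* (NM_007606) chr3:14863512-14872523 and *Car2* (NM_001357334) chr3:14886273-14900770. *Car3* and *Car2* are separated by 13.7 kb, and the whole cluster spans 259 kb. *Car4* (NM_007607) lies on chromosome 11 at chr11:84957786-84966044, and *Car5b* (NM_181315) on the X chromosome at chrX:163976822-164027997, on the minus strand. None of the 5 genes overlaps another annotated gene on either strand. A stretch that encodes the zinc-binding histidines shows how the cytosolic isoforms of the cluster resemble each other where they are most alike. Of the coding windows of its length aligned without gaps, it was picked for the fewest differences of *Car2* and *Car13* from *Car3*. It is printed for all 3 of them from GENCODE transcripts, because their responses to cold are compared below, and capitals mark the bases that differ from *Car3*.

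Car3: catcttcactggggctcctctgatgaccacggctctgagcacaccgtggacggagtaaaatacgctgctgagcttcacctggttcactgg

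Car2: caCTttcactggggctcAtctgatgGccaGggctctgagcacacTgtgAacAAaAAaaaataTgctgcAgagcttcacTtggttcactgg

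Car13: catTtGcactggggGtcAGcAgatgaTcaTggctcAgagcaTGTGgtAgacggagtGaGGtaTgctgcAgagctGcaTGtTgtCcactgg

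These 90 bases cross from exon 3 into exon 4 of 7 in each gene, at chr3:14866850-14868366 in *Car3*, chr3:14895069-14895552 in *Car2* and chr3:14650706-14654901 in *Car13*, where each range includes the intron. *Car2* differs from *Car3* at 14 of the 90 bases and *Car13* at 24. Over the whole coding sequences, pairs of the 5 genes were 54.0% to 64.2% identical. Over the whole transcripts, the longest run of bases shared by a pair was 30, between *Car2* and *Car13*. None of the 50-base stretches of the *Car2*, *Car3*, *Car4* or *Car13* transcript occurred in a transcript of another gene. Of the 3387 such stretches of the *Car5b* transcript, 149 did, so some *Car5b* reads may not have mapped uniquely.

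Read as a whole, the set split by gene: *Car2* and *Car13* were higher after cold exposure in both genotypes, while *Car3*, *Car4* and *Car5b* did not pass the test in either. A gene was called when its adjusted p, from limma with Benjamini-Hochberg adjustment over 13404 genes, was under 0.05. By that rule 2 of the 5 genes were called in Atf4WT and 2 in Atf4AKO iWAT, all higher in cold. Of all genes tested, 31.9% were called in Atf4WT and 25.9% in Atf4AKO iWAT, and 17% and 14.8% were called as higher in cold. The thresholds of the study's rule (fold over 1.5, unadjusted p under 0.05) were applied here to the limma values, whereas the study used DESeq2. By these thresholds, called the rule of the study below, *Car2* and *Car13* passed in each genotype, as did 21.2% and 17.2% of all genes. The median log2 fold change of the 5 genes was 0.28 in Atf4WT and 0.37 in Atf4AKO iWAT, and the median of all genes was 0.0026 and -0.032. The median of the 5 is in both genotypes the value of *Car5b*, which was not called. In whole tissue, fewer cells of a type and less RNA per cell cannot be told apart, and this holds for each difference below.

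**Figure D1:**
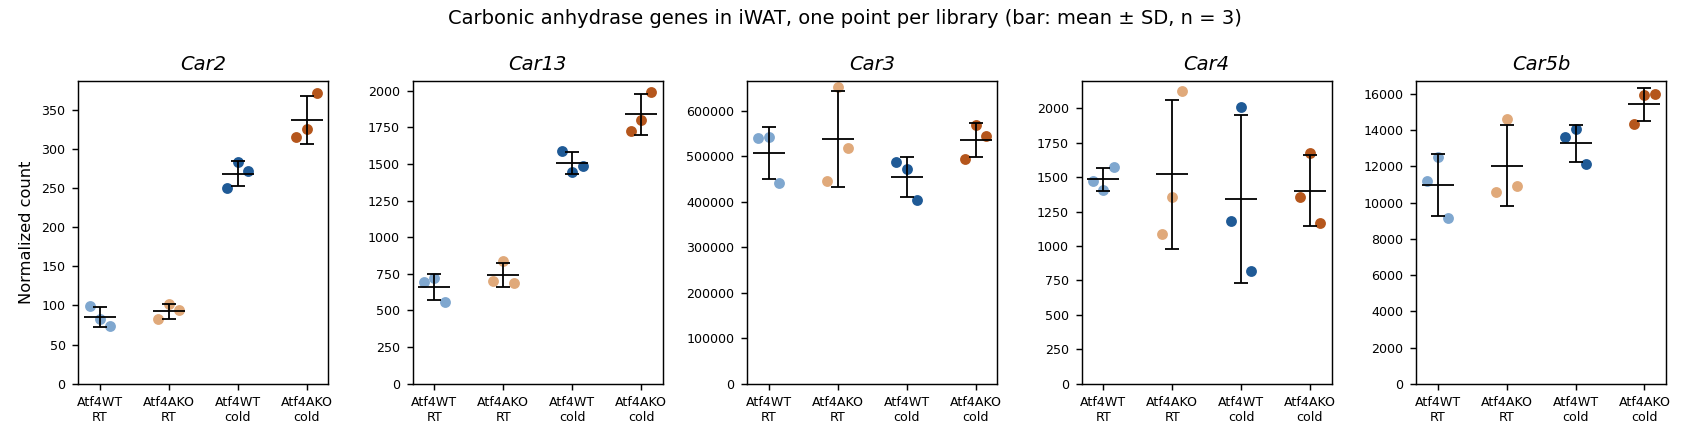
Normalized counts (y axis, from 0, a scale of its own for each gene) of *Car2*, *Car13*, *Car3*, *Car4* and *Car5b* in each of 12 iWAT libraries, by group. Points are libraries, and bars are the mean and SD of 3 libraries. All cold-exposed libraries lie above all RT libraries for *Car2* and *Car13*, and the RT and cold groups overlap for the other genes.

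*Car2* encodes the fast cytosolic isoform found in many tissues. Its normalized counts in replicates 0, 1 and 2 were 99.2, 82.8 and 73.2 in Atf4WT and 82.7, 101.6 and 93.7 in Atf4AKO iWAT at RT. After cold exposure they were 250.6, 282.9 and 272.2 in Atf4WT and 314.6, 325.4 and 371.8 in Atf4AKO iWAT. The lowest cold-exposed library was thus above the highest RT library in both genotypes, as it was for 23.9% of all genes in Atf4WT and 21.7% in Atf4AKO iWAT. *Car2* rose 3.15-fold in Atf4WT iWAT (log2 fold change 1.66 ± 0.15 SE, limma adjusted p = 6.45e-05) and 3.61-fold in Atf4AKO iWAT (1.85 ± 0.15, adjusted p = 4.01e-05). The 95% confidence intervals of these folds were 2.50 to 3.97 and 2.87 to 4.55. *Car2* was also the scarcest of the 5 genes, with between 79 and 346 reads in a library.

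*Car13* encodes a further cytosolic isoform. At RT its normalized counts were 696, 722 and 559 in Atf4WT and 699, 834 and 690 in Atf4AKO iWAT. In cold they were 1588, 1444 and 1486 in Atf4WT and 1724, 1800 and 1994 in Atf4AKO iWAT, again with no overlap between RT and cold. *Car13* rose 2.30-fold in Atf4WT (log2 fold change 1.20 ± 0.11, limma adjusted p = 7.59e-05, 95% interval of the fold 1.93 to 2.73) and 2.48-fold in Atf4AKO iWAT (1.31 ± 0.11, adjusted p = 5.07e-05, interval 2.09 to 2.95). The cold calls of *Car2* and *Car13* were made in each of 25 alternative analyses in both genotypes. Without both libraries richest in muscle markers, an alternative added after the data were seen, *Car13* in Atf4WT iWAT had a log2 fold change of 1.05. An exact two-sided permutation test of either gene gave p = 0.1 in each genotype, the smallest value that 3 libraries against 3 can give. All 7 thermogenic adipocyte markers, *Ucp1* among them, were called higher in cold in both genotypes; their sum went from between 6816 and 9628 at RT to between 106876 and 171107 in cold. In Atf4WT iWAT 10 of 11 listed B cell and 12 of 13 T cell markers were also called higher in cold, and in Atf4AKO iWAT none was. With the lymphocyte score as a covariate the log2 fold changes in Atf4WT iWAT were 1.85 for *Car2* and 1.55 for *Car13*. This score was higher in each cold-exposed than in each RT library of Atf4WT iWAT, so lymphocyte content and cold cannot be told apart there. The part of the thermogenic change in the *Car2* and *Car13* results was not tested.

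*Car3* encodes a cytosolic isoform with low hydratase activity that is abundant in adipocytes and skeletal muscle. It was among the 3 genes with the most reads in every library and took between 1.57% and 2.29% of all reads. In the lowest library, Atf4WT cold replicate 2, the exact Clopper-Pearson 95% interval of this share was 1.57% to 1.58%, and in the highest, Atf4AKO RT replicate 1, it was 2.28% to 2.29%. Such intervals cover counting error only. Normalized counts of *Car3* were 539888, 541763 and 441083 in Atf4WT and 444847, 652965 and 517779 in Atf4AKO iWAT at RT. In cold they were 487908, 471906 and 403920 in Atf4WT and 494947, 568295 and 544361 in Atf4AKO iWAT. The RT and cold groups overlapped in both genotypes, and the spread among libraries of a group was as large as the difference between groups. The log2 fold change with cold was -0.16 (95% interval -0.83 to 0.52, limma adjusted p = 0.724) in Atf4WT and 0.01 (-0.66 to 0.68, adjusted p = 0.986) in Atf4AKO iWAT. These intervals leave room for changes in either direction. Their width rests on the limma variance trend over all genes as well as on the spread of the *Car3* libraries. The library richest in muscle markers, Atf4WT RT replicate 2, had the lowest *Car3* value of all RT libraries. Atf4WT cold replicate 0 and Atf4AKO cold replicate 1, also with raised muscle markers, had the highest *Car3* values of their groups. The part of muscle in the *Car3* values was not tested.

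*Car4* encodes an isoform tethered to the cell surface by a glycosylphosphatidylinositol anchor and known from capillary endothelium. Its normalized counts were 1470, 1409 and 1577 in Atf4WT and 1087, 1354 and 2129 in Atf4AKO iWAT at RT. In cold they were 1184, 2013 and 822 in Atf4WT and 1359, 1678 and 1171 in Atf4AKO iWAT. The cold-exposed Atf4WT libraries alone span the whole range of the Atf4WT RT libraries. With cold, *Car4* had a log2 fold change of -0.25 (95% interval -0.91 to 0.42, limma adjusted p = 0.565) in Atf4WT and -0.08 (-0.74 to 0.59, adjusted p = 0.874) in Atf4AKO iWAT. The 4 capillary endothelium markers summed to 17610, 24017 and 13153 in the same 3 cold-exposed Atf4WT libraries and to 19612, 21107 and 17332 in the cold-exposed Atf4AKO libraries, which is the order of the *Car4* values in both groups. At RT the order differed from that of *Car4*, with sums of 19048, 21151 and 18463 in Atf4WT and 18473, 20808 and 20188 in Atf4AKO iWAT. None of these 4 markers was called in either genotype, and their part in the spread of *Car4* was not tested.

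*Car5b* encodes the mitochondrial isoform found in many tissues. Its normalized counts at RT were 11213, 12532 and 9126 in Atf4WT and 10579, 14598 and 10904 in Atf4AKO iWAT. In cold they were 13640, 14049 and 12106 in Atf4WT and 14360, 15920 and 15999 in Atf4AKO iWAT. The groups overlapped by 1 library on each side in both genotypes. Its log2 fold change with cold was 0.28 (95% interval -0.03 to 0.60, limma adjusted p = 0.151) in Atf4WT and 0.37 (0.06 to 0.69, adjusted p = 0.0780) in Atf4AKO iWAT, so it was not called. Without Atf4AKO RT replicate 1, which held the highest RT value, *Car5b* was called in Atf4AKO iWAT with a log2 fold change of 0.52 (limma adjusted p = 0.0217). With the lymphocyte score as a covariate it was called in Atf4WT iWAT with a log2 fold change of 0.72 (limma adjusted p = 0.0204). The limit given above for this score in Atf4WT iWAT holds here too.

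**Figure D2:**
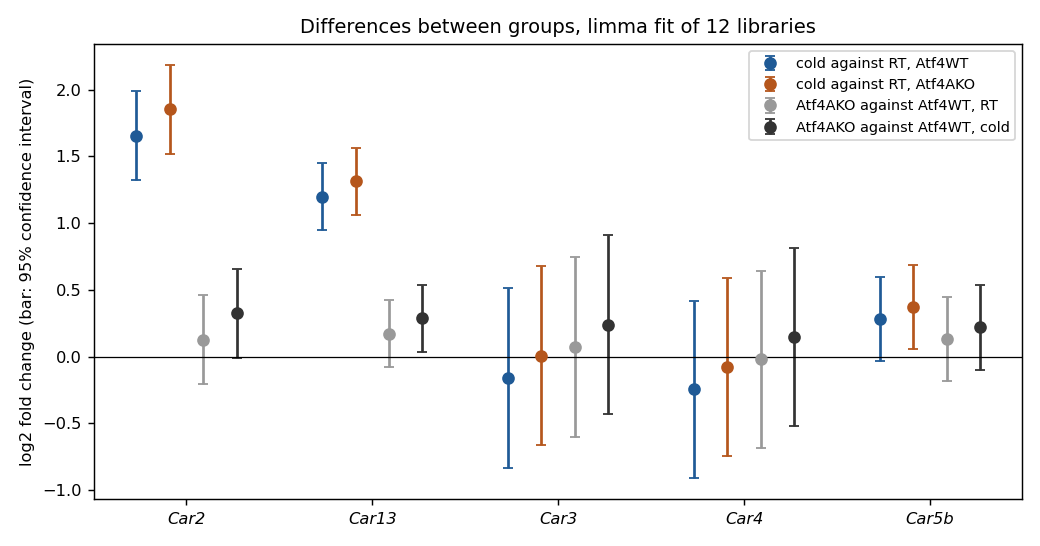
Log2 fold changes (y axis) of the 5 genes (x axis) for cold against RT in each genotype and for Atf4AKO against Atf4WT iWAT at RT and in cold. Points are limma estimates from 12 libraries, and bars are 95% confidence intervals. The cold intervals of *Car2* and *Car13* lie above 0 in both genotypes, from 0.95 for *Car13* in Atf4WT to 2.19 for *Car2* in Atf4AKO iWAT, while those of *Car3* and *Car4* span 0.

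Whether the 5 genes differed from each other in their response was asked within libraries, from the log2 difference of each pair, a test chosen after the values were seen. The exact two-sided permutation test kept genotypes apart and covered 400 assignments of the cold label, with a smallest p of 0.005, and p was adjusted over 10 pairs. *Car2* exceeded *Car13* by a log2 difference of 0.46 in Atf4WT and 0.54 in Atf4AKO iWAT (exact p = 0.005, adjusted p = 0.00625). *Car2* exceeded its neighbour *Car3* by 1.81 and 1.85, and *Car13* exceeded *Car5b* by a mean of 0.93 over the genotypes, each with the same p. *Car3* responded by 0.40 less than *Car5b* on average (exact p = 0.005, adjusted p = 0.00625). The pairs that did not pass were *Car3* and *Car4*, with a mean difference of 0.09 (exact p = 0.715, adjusted p = 0.715), and *Car4* and *Car5b*, with -0.49 (exact p = 0.095, adjusted p = 0.106). The remaining 4 pairs, each of *Car2* or *Car13* with one of the other genes, reached the smallest p as well. In the balance of transcripts this was a shift of the minor cytosolic forms against *Car3*. There were 5377 to 6546 normalized counts of *Car3* for each of *Car2* at RT and 1464 to 1947 in cold. For *Car13* the corresponding range went from 636 to 789 at RT to 272 to 327 in cold.

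Along the cluster on chromosome 3 the response to cold was uneven. *Car13* at one end and *Car2* at the other rose. *Car3*, 13.7 kb from *Car2*, had a log2 fold change near 0 in Atf4AKO iWAT, as given above, and was not called in either genotype. *Car1*, which encodes a cytosolic isoform best known from red blood cells and lies between *Car13* and *Car3*, had log2 fold changes of -0.32 in Atf4WT (limma adjusted p = 0.314) and 0.12 in Atf4AKO iWAT (adjusted p = 0.739). *Car1* values were low, between 46.1 and 83.7 normalized counts, and the erythroid markers that were listed, 3 of 7, had none called in either genotype.

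**Figure D3:**
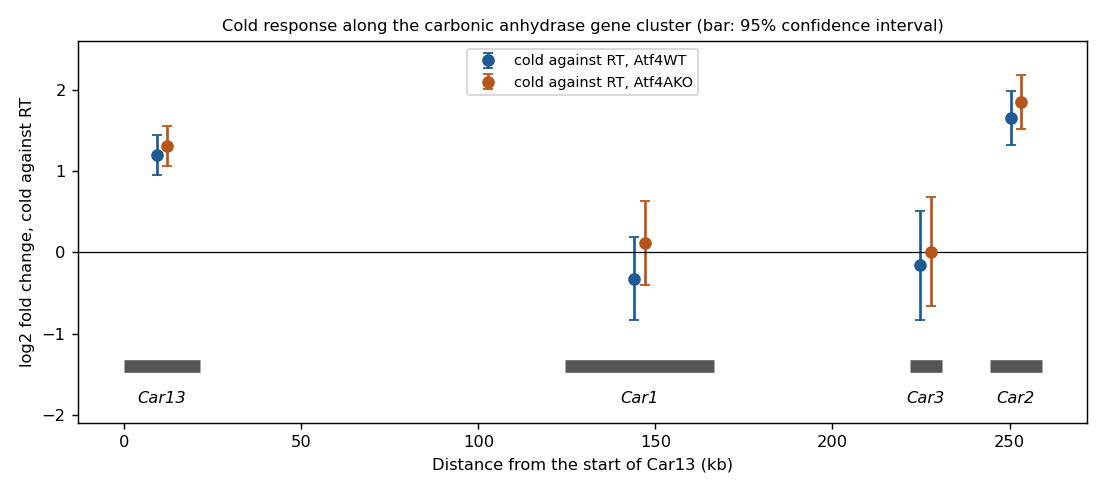
Log2 fold change of cold against RT (y axis) for the 4 genes of the cluster, placed at the middle of each gene by distance from the start of *Car13* in kb (x axis); grey bars show the extent of the genes. Points are limma estimates in Atf4WT and Atf4AKO iWAT, with 95% confidence intervals. *Car13* and *Car2* lie above 1 in both genotypes, and the intervals of *Car1* and *Car3* between them span 0.

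Levels of different genes were compared as normalized counts per kilobase of annotated exon. On this scale *Car3* stood at 177165 ± 20103 in Atf4WT and 187969 ± 36858 in Atf4AKO iWAT at RT (mean ± SD, n = 3). *Car5b* followed with 1724 ± 270 and 1893 ± 351, and *Car4* with 756 ± 43.3 and 775 ± 275. *Car13* stood at 287 ± 38.1 and 322 ± 35.2, and *Car2* at 35.1 ± 5.43 and 38.3 ± 3.91. At RT this order held with no overlap between neighbouring genes in either genotype. In cold *Car13* reached 655 ± 32.3 in Atf4WT and 800 ± 60.6 in Atf4AKO iWAT, beside 681 ± 310 and 714 ± 130 for *Car4*, and these neighbours then differed by less than their spread. The order of *Car4* and *Car13* in cold also depended on the length used, since *Car4* had 1117 per kilobase of its longest transcript in Atf4AKO iWAT. *Car2* reached 111 ± 6.78 in Atf4WT and 139 ± 12.5 in Atf4AKO iWAT in cold and remained the lowest of the 5 genes.

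Of 16 carbonic anhydrase genes looked for, 12 were listed. *Car5a*, *Car6*, *Car10* and *Car12* were not, and the listed genes are those with at least 1 read in every library. Of the 12, 3 were called higher and none lower with cold in Atf4WT iWAT, and 2 higher and 1 lower in Atf4AKO iWAT. Beside this, 31.9% and 25.9% of all genes tested were called, and 17% and 14.8% were called as higher in cold. The median log2 fold change of the 12 was 0.22 in Atf4WT and 0.25 in Atf4AKO iWAT. The further calls were small genes by level. *Car15*, which encodes a membrane-anchored isoform, rose 1.77-fold in Atf4WT iWAT (limma adjusted p = 0.0233), from 29.4, 33.7 and 43.6 to 62.7, 57.0 and 69.7 normalized counts. In Atf4AKO iWAT its RT values of 31.6, 26.9 and 41.7 and cold values of 43.6, 53.3 and 55.9 did not overlap either, but the adjusted p was 0.0849. *Car7*, which encodes a cytosolic isoform, fell in Atf4AKO iWAT by 0.64 on the log2 scale (limma adjusted p = 0.0407), from 132, 121.5 and 103.9 to 74.4, 71.4 and 81.7. In Atf4WT iWAT its values were 137.8, 103.0 and 88.1 at RT and 64.7, 90.8 and 73.5 in cold, and its log2 fold change was -0.51 (adjusted p = 0.0819). For both genes the interaction with genotype was not called, as given below.

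The other family genes were not called in either genotype. *Car14*, which encodes a transmembrane isoform, varied most, from 2.76 to 66.9 normalized counts, and had log2 fold changes of 1.92 in Atf4WT and 1.60 in Atf4AKO iWAT (limma adjusted p = 0.128 and 0.216). Its highest RT value, 32.5, was in Atf4WT RT replicate 2 and its highest value overall in Atf4AKO cold replicate 1, both among the 3 libraries with raised muscle markers, but Atf4WT cold replicate 1, with few muscle counts, had 50.7, and the part of muscle in *Car14* was not tested. *Car9*, which encodes a transmembrane isoform, was the scarcest, with 4.53 to 25.4 normalized counts. *Car8* and *Car11* encode related proteins without the enzyme activity, and their values ranged from 44.3 to 319 and from 73.4 to 205. *Car14* overlaps *Aph1a* on the other strand. Predicted genes overlap *Car9* on the other strand, *Car1* and *Car15* on the same strand, and *Car8* on both. Since the strand setting of the counting is not given in the sources used here, reads of partners on the other strand may not be told apart. For partners on the same strand that setting makes no difference.

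**Figure D4:**
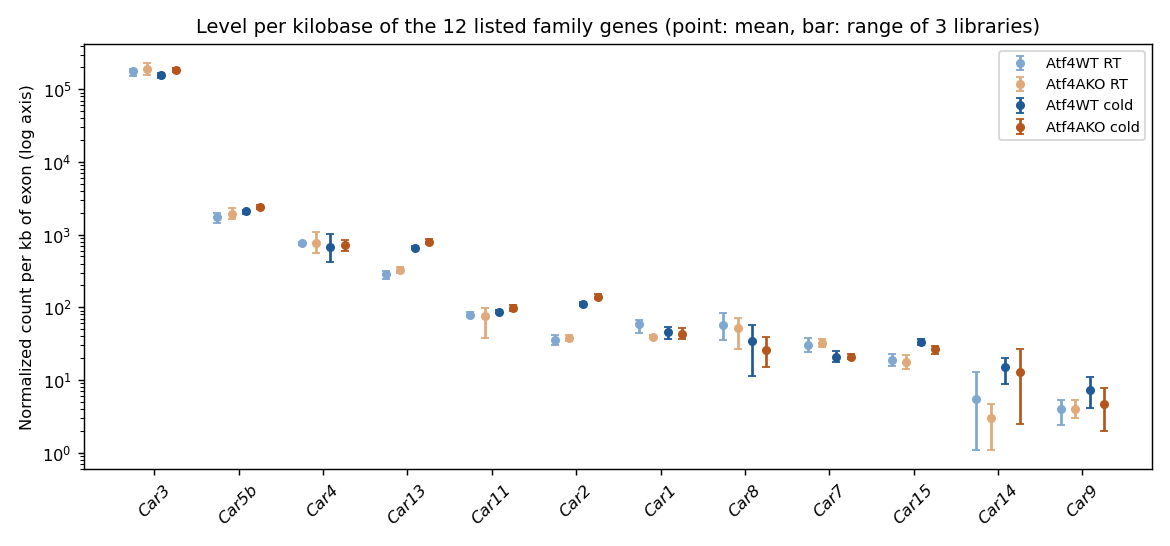
Normalized counts per kilobase of annotated exon (y axis, log scale) of the 12 listed carbonic anhydrase genes, in order of their mean level. Points are group means and bars the range of 3 libraries. *Car3* lies near 177710 per kilobase on average, *Car5b* near 2033, and *Car2* and *Car13* step up from RT to cold.

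Atf4AKO and Atf4WT iWAT were compared to ask whether the adipocyte deletion of *Atf4* changed the 5 genes. At RT none was called by limma, none had an unadjusted p under 0.05, and none was called by edgeR or DESeq2. All groups overlapped, with log2 fold changes from -0.02 for *Car4* to 0.17 for *Car13*. Of all genes, 0.00746% were called at RT and 0.463% passed the rule of the study. In cold *Car2*, *Car13*, *Car3* and *Car5b* were higher in each of the Atf4AKO libraries than in each of the Atf4WT libraries, as were 8.68% of all genes. The same 6 libraries enter all of these values, so the 4 genes are not independent of each other. None was called by limma, edgeR or DESeq2, and none passed the rule of the study. The background in cold was 0.0298% of genes called and 6.4% by the rule of the study. *Car13* had the smallest p, with a log2 fold change of 0.29 (95% interval 0.04 to 0.54, limma adjusted p = 0.330), and it was the 1 gene of the 5 whose unadjusted p was under 0.05. The exact permutation test gave 0.1, its smallest value, for each of the 4 genes without overlap. *Car2* followed with 0.33 (-0.01 to 0.66, limma adjusted p = 0.434), *Car3* with 0.24 (-0.43 to 0.91, adjusted p = 0.809) and *Car5b* with 0.22 (-0.10 to 0.53, adjusted p = 0.603). *Car4* had 0.15 (-0.52 to 0.81, adjusted p = 0.887), with overlapping groups. Lymphocyte markers moved with this comparison: the mean log2 value of the B and T cell markers was 7.15, 9.17 and 9.66 in cold-exposed Atf4WT libraries and 5.05, 3.53 and 3.95 in cold-exposed Atf4AKO libraries. With this score as a covariate the log2 fold changes became -0.15 for *Car13*, 0.09 for *Car2*, -0.28 for *Car3* and -0.31 for *Car5b*, none of them called. Since the score did not overlap between the genotypes in cold, lymphocyte content and genotype cannot be told apart in this comparison.

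Whether the genotypes responded unequally to cold was tested as an interaction. None of the 5 genes was called, and none had an unadjusted p under 0.05. The estimates, in which a positive value is a larger response in Atf4AKO iWAT, were 0.20 for *Car2* (95% interval -0.27 to 0.67), 0.11 for *Car13* (-0.24 to 0.47), 0.09 for *Car5b* (-0.36 to 0.53), 0.17 for *Car3* (-0.79 to 1.12) and 0.17 for *Car4* (-0.77 to 1.11). The limma adjusted p was 0.996 for each. The sign of 4 of them turned with the lymphocyte score as a covariate, to -0.03 for *Car2*, -0.30 for *Car13*, -0.42 for *Car5b* and -0.34 for *Car3*, and again none was called. The score was apart between the genotypes in cold, as given above, so lymphocyte content and genotype cannot be told apart here either. Without the covariate, *Car15*, with -0.22, and *Car7*, with -0.13, had the same limma adjusted p of 0.996. Of all genes tested 0% were called by limma, 4.63% passed the rule of the study and 928 had an unadjusted p under 0.05; edgeR called 0 and DESeq2 128. The intervals allow a moderate difference in either direction for each gene, most widely for *Car3* and *Car4*.

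Carbonic anhydrases work with transporters that carry bicarbonate, protons or carbon dioxide across membranes, and of a list of 19 such genes 15 had deposited values and 12 passed the filter on low values. With cold, 4 were called higher and 4 lower in Atf4WT iWAT, and 4 higher and 2 lower in Atf4AKO iWAT, with medians of 0.15 and 0.17. Over all genes tested, 31.9% and 25.9% were called in Atf4WT and Atf4AKO iWAT, and 17% and 14.8% were called as higher. *Slc4a4*, the electrogenic sodium bicarbonate cotransporter, had 622, 665 and 782 normalized counts at RT and 1959, 1996.5 and 2283 in cold in Atf4WT iWAT, each sorted from low to high. Its log2 fold change was 1.59 in Atf4WT and 1.73 in Atf4AKO iWAT (limma adjusted p = 0.000105 and 7.57e-05). *Slc16a1*, the monocarboxylate transporter MCT1 that moves lactate together with a proton, rose 2.90-fold in Atf4WT and 2.83-fold in Atf4AKO iWAT, and *Slc26a6*, an anion exchanger, rose by 1.07 and 1.15 on the log2 scale. These 3 genes were called in both genotypes, without overlap between RT and cold. Such a rise without overlap was seen for 23.9% of all genes in Atf4WT and 21.7% in Atf4AKO iWAT.

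*Aqp1*, a water channel that also passes carbon dioxide, fell from 17382 ± 1873 to 5946 ± 1765 normalized counts in Atf4WT and from 15597 ± 457 to 6115 ± 488.5 in Atf4AKO iWAT. *Slc4a7* and *Slc4a3*, which carry bicarbonate with sodium or in exchange for chloride, fell in Atf4WT iWAT by 0.44 and 0.59 on the log2 scale and were not called in Atf4AKO iWAT. *Slc4a2*, an anion exchanger, was called higher in Atf4AKO iWAT with 0.29 and not in Atf4WT iWAT with 0.18. *Slc4a8*, a sodium-driven bicarbonate transporter, rose in Atf4WT iWAT by 1.37 (limma adjusted p = 0.0343), with cold values from 116 to 509, and had -0.27 in Atf4AKO iWAT. The interaction of *Slc4a8* was -1.64 (limma unadjusted p = 0.0225, adjusted p = 0.581), and its rise was in the group with the raised lymphocyte markers given above, whose part was not tested. *Bsg*, the partner protein of MCT1, *Slc9a2* and *Slc16a3* were not called in either genotype.

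The carboxylases that use bicarbonate were the other list, with 8 of 9 genes listed and tested. *Acacb*, the acetyl-CoA carboxylase at the mitochondrial outer membrane, was called higher in both genotypes, from 7805 ± 763 to 21141 ± 563 normalized counts in Atf4WT and from 9848 ± 1714 to 22492 ± 2137 in Atf4AKO iWAT. *Mccc2*, a subunit of methylcrotonyl-CoA carboxylase, fell in Atf4WT iWAT by 0.33 on the log2 scale (limma adjusted p = 0.0312) and was not called in Atf4AKO iWAT with -0.20. *Acaca*, the cytosolic acetyl-CoA carboxylase, had 0.12 and -0.03, and *Pcx*, the mitochondrial pyruvate carboxylase, had 0.10 and -0.01. Neither was called, nor were *Pcca*, *Pccb*, *Mccc1* and *Cad*. The median of the list was 0.01 in Atf4WT and -0.00073 in Atf4AKO iWAT, beside the medians of all genes given above.

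**Figure D5:**
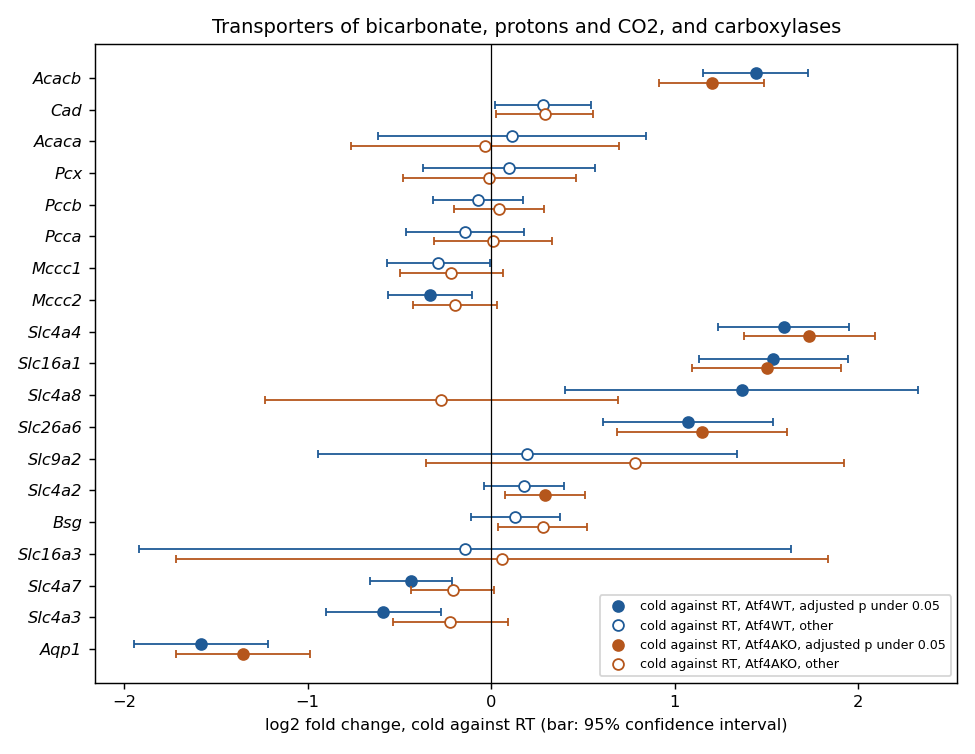
Log2 fold change of cold against RT (x axis) in Atf4WT and Atf4AKO iWAT for 11 of the tested transporters of bicarbonate, protons and carbon dioxide (lower genes) and the bicarbonate-using carboxylases (upper 8 genes). Points are limma estimates, filled where the adjusted p was under 0.05, and bars are 95% confidence intervals. *Acacb*, *Slc4a4*, *Slc16a1* and *Slc26a6* lie above 1 and *Aqp1* below -1 in both genotypes.

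For each of the 5 genes, the genes most like it were sought by Pearson's r of log2 normalized counts over the 12 libraries, among 11841 genes with a mean of at least 50. The libraries form an RT and a cold set and share their preparation, so r is a description without a test. *Car13* was most like *Slc25a51* (r = 0.997), the mitochondrial NAD transporter, then *Grpel1* (0.994), a cofactor of mitochondrial protein import, and *Fastkd2* (0.994), a mitochondrial RNA-binding protein. Among the 3 genes most like *Car2* were *Rdh13* (0.990), a mitochondrial retinol dehydrogenase, and *Car13* (0.989). For these 2 genes r includes the step from RT to cold. After the group means were taken out, r of *Car2* was lower, at 0.72 with *Rdh13* and 0.65 with *Car13*. That of *Car13* stayed at 0.94 with *Slc25a51*, 0.90 with *Grpel1* and 0.89 with *Fastkd2*.

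*Car5b* was most like *Prkar2b* (0.968), a regulatory subunit of protein kinase A, *Retsat* (0.964), a retinol saturase, and *Sdha* (0.958), a subunit of succinate dehydrogenase. *Car3* was most like *Ptp4a1* (0.931), a phosphatase, *Ppa2* (0.913), a mitochondrial pyrophosphatase, and *Trap1* (0.913), a mitochondrial chaperone. *Car4* was most like *Gpihbp1* (0.925), which holds lipoprotein lipase on capillary endothelium and was itself one of the capillary markers, *Gstt2* (0.925), a glutathione transferase, and *Fam189a2* (0.922). Without the group means, r of *Car4* with *Gpihbp1* was 0.93 and r of *Car3* with *Ptp4a1* was 0.90.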

How the data were processed

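Polyadenylated RNA of iWAT was measured in 12 strand-specific libraries. Per the study's methods, the authors cleaned reads with SOAPnuke, aligned them by STAR (mm10) and assigned unique alignments to genes by featureCounts. What they deposited is a normalized signal per gene, the read number after scaling by DESeq2 size factors. Tool versions and the strand setting are not given in the sources used here. The value of 1 read, the smallest value in a library, turned 100% of values into whole reads (tolerance 0.01). The test used limma 3.58.1 (variance trend) in R 4.3.3 on log2(normalized count + 1), with the 4 group means and no covariate. It covered the 13404 genes averaging 10 normalized counts or more and left out 755. Depth was similar in all libraries.

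Alternatives were a pseudocount of 0.5 or 5, no filter or one at 50, the compared groups alone, rescaling to the 75th percentile, array weights, a block for the replicate number, a lymphocyte or a skeletal muscle score as covariate, leaving out each library, edgeR 4.0.16 and DESeq2 1.42.0 on the recovered reads, and other gene lengths. Genes and lists were chosen with earlier results of these data known. Named genes are the 5 genes, the listed family, list genes, the 3 genes most like each, *Atf4* and *Ucp1*; 2 genes that this rule names are not reported here, though counts include them. Annotation and sequences came from GENCODE on GRCm38. The tests were checked on simulated reads.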

Additional observations from a re-analysis of the deposited data

How the results depend on the processing

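The calls of *Car2* and *Car13* for cold against RT were the same in all 25 alternatives and both genotypes, with log2 fold changes from 1.55 to 1.85 for *Car2* and 1.05 to 1.55 for *Car13* in Atf4WT iWAT, and from 1.78 to 1.92 and 1.25 to 1.40 in Atf4AKO iWAT. *Car3* and *Car4* were not called in any. *Car5b* gained a call in Atf4WT iWAT in 1 alternative and in Atf4AKO iWAT in 2. The labels do not say what a replicate number marks. Deviations from the group means correlated above 0.1 in 9 of 18 same-numbered pairs of libraries (range -0.19 to 0.39), in all 6 of number 1 but 1 of 6 of number 0 and 2 of 6 of number 2, and 6 of 12 libraries were most like their own number. The numbers were therefore not taken as a pairing. With the replicate number as a block, *Car5b* was called in Atf4AKO iWAT (log2 fold change 0.37, limma adjusted p = 0.0314), which made 3 genes called, and no other call of the 5 genes changed. The genes called in cold between the genotypes rose from 4 to 189 with the block, to 591 with DESeq2, to 515 without Atf4WT cold replicate 0 and to 146 without Atf4WT RT replicate 2, and fell to 0 with the lymphocyte score or with the compared groups alone, the cause of which was not tested. None of the 5 was among them.

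Per kilobase of the longest annotated transcript, the mean level was 110 for *Car2*, 303239 for *Car3*, 1145 for *Car4* and 3760 for *Car5b*, against 80.9, 177710, 731 and 2033 per kilobase of all exons, because the length is shorter. The listed RefSeq transcript gave 303239, 1145 and 3760 for *Car3*, *Car4* and *Car5b*, and *Car13* did not move.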
